A study of Mus musculus with 6 samples.

Results

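The genes described are 9 mammary lineage regulators, namely the transcription factors Elf5, Ehf, Gata3, Sox9, Sox10 and Trp63, the transcriptional inhibitor Id4, the receptor tyrosine kinase Kit and the retinaldehyde-oxidising enzyme Aldh1a3. They were taken by name from the count table of 4 mouse mammary tumour stages, where they are 9 of 22547 genes. In the mammary gland an outer basal, contractile layer surrounds luminal cells, which divide into a hormone-sensing lineage and an alveolar lineage that makes milk proteins. Elf5 and Ehf, factors of the ETS family, and Kit mark the alveolar side and its progenitors, Trp63 and Id4 mark basal cells, and Gata3 is needed for luminal fate. Sox9 and Sox10 are known from progenitor-like states of both layers.

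The study profiled single cells from transplanted mammary tumours and their residues, with 1 library for each group, so no test between groups was possible and each interval below covers counting error only. All mice were of strain FVB (FVB.rGH-Luc-GFP). MMTV-Wnt1 is a transgene in which the mammary tumour virus promoter drives Wnt1 in mammary epithelium, and the second part of each genotype label carries a running number. Primary (MMTV-Wnt1/iFGRR2) came from mice 8 to 10 weeks old and Dormant (MMTV-Wnt1/iFGRR1) from mice 10 to 12 weeks old. Long-term dormant (MMTV-Wnt1/iFGRR4) came from mice 32 to 34 weeks old and Recurrent (MMTV-Wnt1/iFGRR3) from mice 20 to 22 weeks old. In the submitters' protocol a dimerizer was injected after transplantation until tumours grew without it. Dormant, Long-term dormant and Recurrent then followed 14 days of the FGF receptor inhibitor NVP-BGJ398 and a further 14 days without it. Cells were frozen, thawed, sorted as live by DAPI and loaded for the 3′ version 2 kit with 10000 cells targeted. Stage and age cannot be told apart, and the number of mice behind a library is not given in the sources used here.

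The table held 4925 Primary, 3541 Dormant, 6083 Long-term dormant and 5119 Recurrent cells, with medians of 2568 to 7065 UMIs (unique transcript molecules) per cell. After filtering, 2104, 296, 162 and 2635 of these were in luminal-like or basal-like epithelial clusters, in the same order. The 9 genes were left out of that clustering. The transgene eGFP, which is a row of the table, divided the epithelial cells. Of the Primary cells 2098 held an eGFP UMI, of the Dormant 253, of the Recurrent 2607 and of the Long-term dormant 3. The 159 Long-term dormant, 43 Dormant, 28 Recurrent and 6 Primary cells with none are called eGFP-negative. A missing UMI does not show that a cell lacks the transgene, and 17.2% of Recurrent and 9.55% of Primary immune cells also held an eGFP UMI. Across all 4 libraries, 194 barcodes occurred in more than 1 library.

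The Dormant library stood apart. Of its luminal-like cells with eGFP, 33 of 92 (35.9%) held UMIs of at least 2 of 7 lymphocyte or leukocyte genes, and so did 41 of 161 (25.5%) basal-like cells with eGFP. In Primary the shares were 1.69% and 1.37%. The doublet caller marked 0 Dormant cells, and doublets and free RNA were not separated there. Dormant ratios were recomputed without those cells, with the values beside the calls that changed and beside several others. The 7 T cell markers summed to 268 CPM in Dormant and 24.3 in Primary luminal-like cells with eGFP, and to 488 and 19.2 in basal-like ones. The 7 fibroblast markers summed to 572 CPM in Dormant and 4.40 in Primary basal-like cells with eGFP, and to 1574 in eGFP-negative basal-like cells of Long-term dormant. The part of fibroblast RNA in the results was not tested. All 8 luminal markers were detected in at least 5% of the luminal-like cells of each library. Of 10 basal markers, 9 were so detected in Primary and Dormant basal-like cells with eGFP, and 10 in Long-term dormant ones without.

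Levels are UMIs of a gene per 1000000 UMIs of the subset (CPM). A gene is called beyond 2-fold where its log2 ratio is at least 1 in size and the 95% interval lies on that side of 0, among genes with at least 20 UMIs over both sides. Elf5, Kit and Id4 set the 2 layers apart below and have RefSeq promoter entries, so bases upstream of 1 start of each are shown here. By GENCODE, Elf5 lies at chr2:103411688-103450989, Kit at chr5:75574916-75656722 and Id4 at chr13:48261228-48266026, all on the plus strand. The stretches shown, without annotated exon bases, are chr2:103423818-103424061 (inside Elf5, upstream of its second start), chr5:75574737-75574915 and chr13:48260866-48261115, plus strand of GRCm38.p6. Capitals mark the ETS match in Kit.
Elf5 upstream: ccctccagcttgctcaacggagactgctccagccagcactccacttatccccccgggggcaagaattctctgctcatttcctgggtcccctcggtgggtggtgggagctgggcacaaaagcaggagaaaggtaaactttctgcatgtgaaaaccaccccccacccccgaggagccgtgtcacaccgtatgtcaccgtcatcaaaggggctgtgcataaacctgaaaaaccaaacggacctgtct
Kit upstream: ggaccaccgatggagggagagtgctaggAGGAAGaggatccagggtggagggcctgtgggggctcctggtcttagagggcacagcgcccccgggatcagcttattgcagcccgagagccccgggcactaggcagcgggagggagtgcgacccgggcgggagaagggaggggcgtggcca
Id4 upstream: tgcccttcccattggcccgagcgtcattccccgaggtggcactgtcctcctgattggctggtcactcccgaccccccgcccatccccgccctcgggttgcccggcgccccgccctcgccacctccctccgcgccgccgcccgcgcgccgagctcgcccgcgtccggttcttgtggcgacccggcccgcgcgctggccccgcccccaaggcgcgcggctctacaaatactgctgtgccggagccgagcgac
The 250 bases before each start were searched on both strands for 4 kinds of short word. The word of ETS factors was AGGAAG. That of GATA factors was AGATAA. For SOX factors both ACAAAG and a variant with another base near the end, ACAATG, were counted. The word of RBPJ, the Notch effector, was GTGGGAA. Kit held 1 ETS match, at position -222 from the start, a word found in 29.5% of 32851 windows of that length. None of these words lay in the Id4 window or in the Elf5 window shown, which says only that these letters were not there. The window of the other Elf5 start (chr2:103411848-103412097), which is annotated exon and not shown, held 1 SOX match, at -207, and 2 CpG, with 18.8% of windows having fewer. GATA words were in 9.99%, SOX words in 25.2% and RBPJ words in 5.42% of windows. The 3 windows differed in CpG content. Elf5 had 8 CpG, Kit 17 and Id4 35, and 57.0%, 76.5% and 97.0% of windows had fewer. A match is a description of letters, not of a bound site.

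Elf5, the master regulator of the alveolar lineage, separated the layers in the 3 libraries that held at least 30 cells of both. In luminal-like cells with eGFP it stood at 124 CPM in Primary (95% interval 118 to 131), 196 in Dormant (170.4 to 225) and 209 in Recurrent (204 to 214). In basal-like cells with eGFP it stood at 10.7 CPM in Primary and 8.33 in Dormant. The luminal and basal intervals did not overlap in either library. Luminal over basal, the log2 ratio was 3.52 in Primary (3.05 to 4.08) and 4.50 in Dormant (3.69 to 5.58). In eGFP-negative cells of Long-term dormant, Elf5 stood at 97.9 CPM in luminal-like cells and at 0 UMIs in 53 basal-like cells. That is 6.26-fold higher against a floor of 3 UMIs, and the log2 ratio had a lower limit of 2.30. With layers assigned by marker sums per cell instead, that log2 ratio was 0.83 and the call was lost. All 11 Dormant basal UMIs of Elf5 lay in cells with 2 immune genes, since 0 remained in the other 120 cells. Without those cells the Dormant log2 ratio was 7.89, with a lower limit of 4.97.

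Ehf, an epithelial ETS factor, followed the same division. Its gene lies at chr2:103263433-103303278 on the minus strand, 108409 bases from Elf5 with no protein-coding gene between them. Luminal-like cells held 178 CPM in Primary, 131 in Dormant and 214 in Recurrent, and 59.1 in the eGFP-negative cells of Long-term dormant. Basal-like cells held 26.1 CPM in Primary, 10.6 in Dormant, and 0 among the 53 eGFP-negative ones. The luminal over basal log2 ratio was 2.76 in Primary (2.45 to 3.11) and 3.59 in Dormant (2.84 to 4.54), or 4.90 (3.29 to 8.29) without cells holding immune genes. The Long-term dormant difference was 3.78-fold against the 3-UMI floor, with a lower limit of 1.54 on the log2 scale. With layers by marker sums the last was 1.26 on the log2 scale and no longer called.

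Kit, the receptor for stem cell factor, was luminal as well. Its luminal level was 105 CPM in Primary (99.1 to 111), 39.4 in Dormant (28.4 to 53.3), 42.6 in Recurrent (40.2 to 45.0) and 28.7 in eGFP-negative Long-term dormant cells (16.7 to 45.9). Primary was high and the other 3 were low, with overlapping intervals among those 3 when all cells were counted. The Long-term dormant value came from 17 UMIs, 6 of them in the same cell. Without that cell the Long-term dormant level was 19.6 CPM (9.76 to 35.0). That interval still overlapped the Dormant interval but lay below the Recurrent interval. In basal-like cells Kit stood at 23.0 CPM in Primary and 3.03 in Dormant, and at 0 in 53 eGFP-negative cells. The luminal over basal log2 ratio was 2.18 in Primary and 3.55 in Dormant, or 4.35 (2.28 to 10.26) without cells holding immune genes. Kitl, which encodes the ligand of Kit, lay on the opposite side. It stood at 15.6 CPM in luminal-like and 41.5 in basal-like Primary cells, at 43.2 and 166 in Dormant, and at 94.5 and 323 in the eGFP-negative cells of Long-term dormant.

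**Figure D1:**
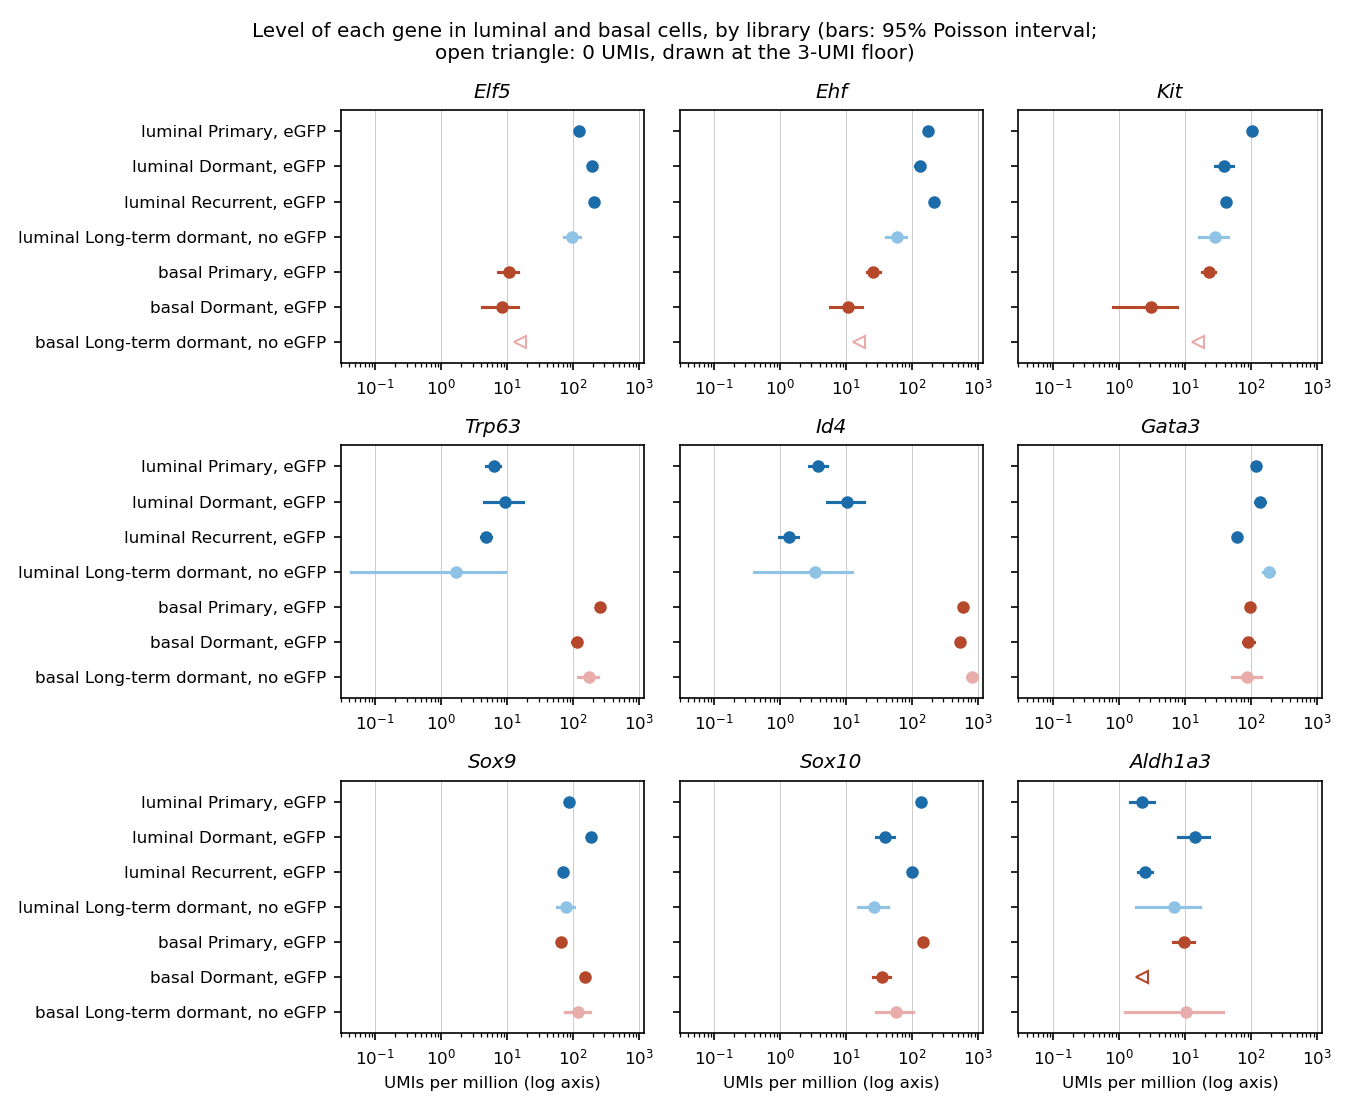
Level of each gene (CPM, log axis) in luminal-like cells (blue) and basal-like cells (red) of each library, paler for cells without eGFP. Points carry 95% Poisson intervals and open triangles mark 0 UMIs at the floor of 3. Elf5, Ehf and Kit sit to the right in the blue subsets, Trp63 and Id4 in the red ones, and Gata3, Sox9 and Sox10 differ between the layers of a library by at most 2.15-fold where both hold 30 cells or more.

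Trp63, the p63 factor of basal epithelium (chr16:25683763-25892102, plus strand), stood at 254 CPM in Primary basal-like cells (237 to 272), 114 in Dormant (96.1 to 133) and 172 in eGFP-negative Long-term dormant cells (118 to 242). Luminal-like cells held 6.28, 9.38 and 1.69 CPM in the same order, and 4.88 in Recurrent. The basal level exceeded the luminal level by 40.2-fold in Primary, 11.6-fold in Dormant and 69.0-fold in Long-term dormant, where the luminal side was 1 UMI. Without cells holding immune genes the Dormant log2 ratio, luminal over basal, was -2.76 (-4.01 to -1.83) instead of -3.53. Counts from the 3′ end do not separate the isoforms of Trp63.

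Id4 showed the largest lineage ratio of the 9 genes in all 3 libraries among ratios with UMIs on both sides. Basal-like cells held 588 CPM in Primary (562 to 615), 532 in Dormant (494 to 573) and 818 in Long-term dormant (695 to 957). Luminal-like cells held 3.82, 10.3 and 3.38 CPM. The log2 ratio, luminal over basal, was -7.25 in Primary (-7.74 to -6.83), -5.63 in Dormant (-6.70 to -4.84) and -7.60 in Long-term dormant (-10.98 to -6.04). The Dormant luminal value came from 11 UMIs.

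Gata3, Sox9 and Sox10 did not divide the layers beyond 2-fold in Primary or Dormant. Gata3 (chr2:9857078-9890034, minus strand) stood at 121 CPM in luminal-like and 99.1 in basal-like Primary cells, and at 139.8 and 92.3 in Dormant. In eGFP-negative Long-term dormant cells it stood at 187 and 88.6 CPM, a log2 ratio of 1.04 (0.34 to 1.91) that was just past the limit and fell inside it, at 0.82, with each cell weighted equally. Without cells holding immune genes the Dormant ratio also passed it, at 1.07 (0.59 to 1.56).
Sox9 (chr11:112782224-112787760, plus strand) stood at 86.2 and 66.7 CPM in luminal-like and basal-like Primary cells, at 186 and 151 in Dormant and at 77.6 and 119.9 in Long-term dormant. Sox10 (chr15:79154908-79165240, minus strand) stood at 137 and 149 CPM in Primary, 39.4 and 35.6 in Dormant, and 27.0 and 57.3 in Long-term dormant. The Sox10 intervals of the 2 layers overlapped in each of these libraries.

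Aldh1a3 (chr7:66390890-66427517, minus strand), whose activity is used elsewhere to mark luminal progenitors, was low in all epithelial subsets. It stood at 2.27 CPM in Primary luminal-like cells (25 UMIs) and 9.75 in Primary basal-like cells (31 UMIs), a log2 ratio of -2.09 (-2.92 to -1.29) toward basal. In Dormant it stood at 14.1 CPM in luminal-like cells (15 UMIs, 5 of them in 1 cell) and at 0 in 161 basal-like cells, which allows at most 2.27 CPM at the 3-UMI floor.

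By count, 3 genes were higher (Elf5, Ehf, Kit) and 3 lower (Trp63, Id4, Aldh1a3) beyond 2-fold in Primary luminal-like cells, where 9.37% and 10.1% of all 11100 genes tested passed in those directions. In Dormant the counts were 3 higher (Elf5, Ehf, Kit) and 2 lower (Trp63, Id4) of 8 tested, beside 10.4% and 11.9% of all genes. In Long-term dormant they were 3 higher (Elf5, Ehf, Gata3) and 2 lower (Trp63, Id4) of 7 tested, beside 8.58% and 11.5%. Kit had too few UMIs there to be tested, with 17 against 0.

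**Figure D2:**
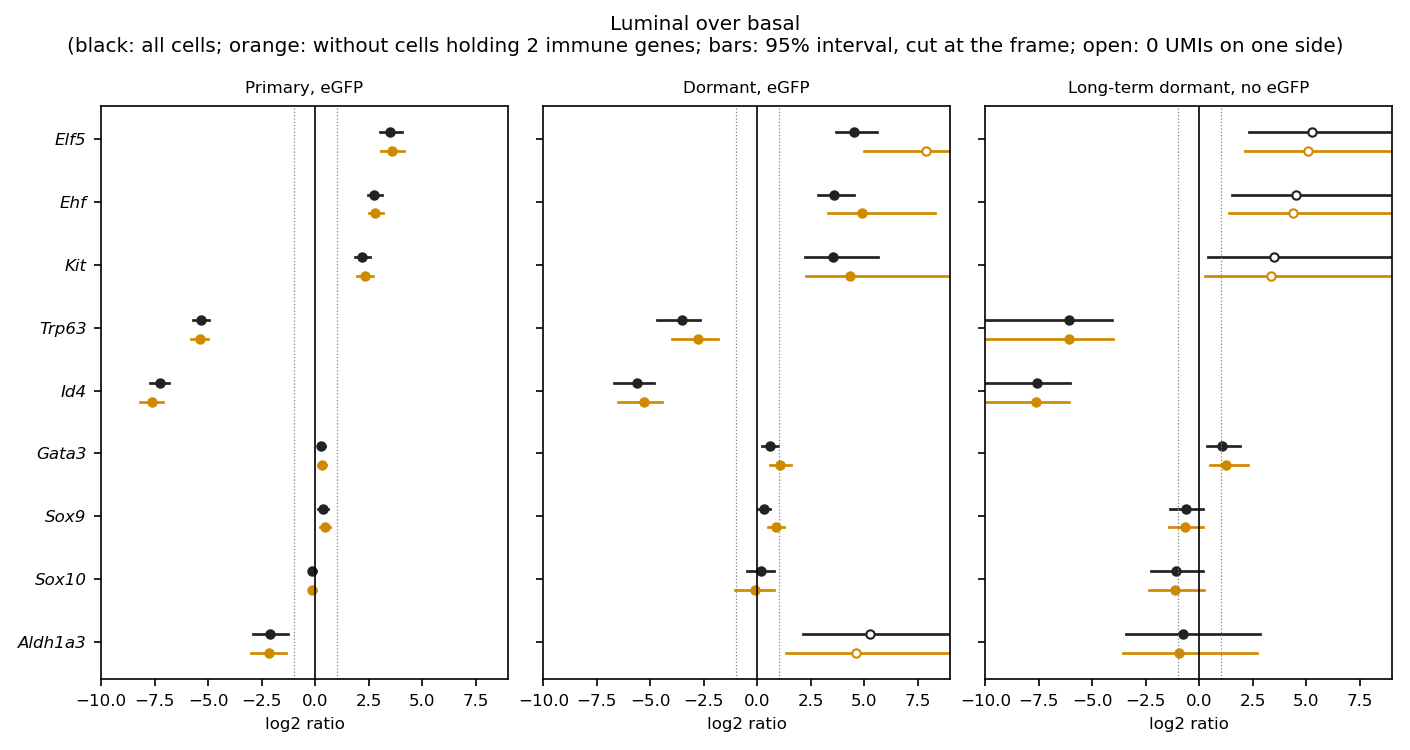
Log2 ratio of luminal-like over basal-like level for each gene in the 3 libraries with both layers, with 95% intervals and dotted lines at 2-fold. Black is all cells and orange leaves out cells with 2 immune genes. Elf5, Ehf and Kit lie right of 0, and Trp63 and Id4 left of it, in each panel and in both colours.

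Other lineage genes gave the setting. Of 13 partners of the alveolar side, 7 were higher and 3 lower beyond 2-fold in Primary luminal-like cells (median log2 ratio 1.40, beside -0.02 over all genes). The milk casein gene Csn3 stood at 9697 against 703 CPM. Of 10 basal regulators tested, 0 were higher and 7 lower (median -1.51), among them Snai2, a transcriptional repressor of basal cells, at 0.546 against 48.7 CPM. Among relatives of the 9 genes, Trp73, a p53-family factor like Trp63, was at 0 UMIs in luminal-like and 6.29 CPM in basal-like Primary cells. That is 23.0-fold lower against the 3-UMI floor, with an upper limit of -4.09 on the log2 scale. Id2, a relative of Id4, lay on the other side in Primary at 566 against 139 CPM, but not in Long-term dormant, where it stood at 75.9 against 151.

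Between stages, the luminal-like cells with eGFP came largely from different clusters. Primary cells were mostly in clusters 102, 106, 103, 110 and 111, Recurrent cells in clusters 100, 101, 105 and 103, and Dormant cells in clusters 113 and 114, with 72 and 15 of 92. In cluster 113, 87 of 138 cells held 2 immune genes, among them 29 of 75 Dormant, 21 of 22 Primary and 37 of 40 Recurrent cells. The 3 luminal comparisons share these libraries, so they are not independent of each other.
Dormant over Primary, 3 genes were higher beyond 2-fold (Sox9, Id4, Aldh1a3) and 2 lower (Sox10, Kit), beside 7.68% and 7.17% of all genes. Sox9, a SOX factor of progenitor-like cells, was at 186 against 86.2 CPM, a log2 ratio of 1.11 (0.88 to 1.33), or 1.53 (1.26 to 1.78) without cells holding immune genes. Sox10 was at 39.4 against 137 CPM, a log2 ratio of -1.78 (-2.27 to -1.35), or -1.97 (-2.74 to -1.36) without them. Kit was lower by 2.64-fold, at a log2 ratio of -1.40 (-1.90 to -0.97), or -1.31 (-2.01 to -0.75) without them. The 2 SOX genes thus lay on opposite sides in Dormant luminal-like cells, each with an interval clear of 0. Elf5 was 1.58-fold higher, Ehf 1.35-fold lower and Gata3 1.15-fold higher, none beyond the limit. With clusters 113 and 114 weighted equally the Dormant levels were 114 CPM for Elf5, against 140.4 in Primary, so its direction turned. They were 21.1 CPM for Sox10 and 26.5 for Aldh1a3, against 144 and 5.84. For Sox9 the equally weighted levels were 169.8 CPM in Dormant and 89.7 in Primary, higher but inside the 2-fold limit. Trp63 passed the limit, at a log2 ratio of 1.49 (0.23 to 2.43), when cells with immune genes were left out, on 9 UMIs, and was -2.75 with layers by marker sums. Id4 was at 1.48 (0.33 to 2.42), or 2.50 without cells holding immune genes and -0.72 with layers by marker sums. Its share of Primary luminal-like cells could not be told from background, as given below.

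Recurrent over Primary, 0 genes were higher beyond 2-fold and 2 were lower (Kit and Id4), beside 4.91% and 8.13% of all genes. Kit was at 42.6 against 105 CPM, a log2 ratio of -1.30 (-1.42 to -1.19). Id4, the inhibitor that marks basal cells, was at 1.38 against 3.82 CPM, from 39 and 42 UMIs. Of these, 6 and 9 lay in 1 cell each. Its share of Primary luminal-like cells could not be told from background, as given below. Gata3, at 61.6 against 121 CPM, had a log2 ratio of -0.98 (-1.08 to -0.88), just inside the limit. Scaling to a total without mitochondrial, ribosomal and haemoglobin genes gave -1.09, just past it. Elf5 was 1.68-fold and Ehf 1.20-fold higher, and Sox10 was 1.38-fold lower. Recurrent over Dormant, Sox10 alone was higher beyond 2-fold (log2 ratio 1.31) and Gata3, Sox9, Id4 and Aldh1a3 were lower, beside 6.30% and 9.78% of all genes. Without cells holding immune genes Ehf was also higher (1.05) and Trp63 lower (-1.84). In Recurrent, Sox9 and Sox10 stood at 71.1 and 98.8 CPM, nearer to Primary than to Dormant. Kit was close to its Dormant level, with a log2 ratio of 0.10 (-0.33 to 0.59).

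Of the luminal-like clusters, 6 held at least 10 cells of both Primary and Recurrent, and 103 and 107 held over 60 of both. In cluster 103, led by Pgf, Ndrg1 and Bnip3, Kit stood at 131 CPM in 216 Primary cells (110.0 to 154) and 93.0 in 270 Recurrent cells (79.0 to 109). Gata3 stood at 61.2 and 62.8 CPM in the same cells. In cluster 107, led by the interferon-inducible Tgtp1, Igtp and Gbp2, Kit stood at 53.8 CPM in 69 Primary cells (34.8 to 79.4) and 18.3 in 210 Recurrent cells (13.6 to 24.0), and Gata3 at 123 and 54.8. So Kit was lower in Recurrent cells of both clusters with intervals that did not overlap, whereas the Gata3 intervals were apart in cluster 107 only. Elf5 was higher in Recurrent cells of both, at 195 against 96.0 CPM in cluster 103 and 195 against 123 in cluster 107. The other 4 clusters held 13 to 31 cells of the smaller side. Kit was at 111 CPM in 16 Primary cells (65.5 to 175) and 27.4 in 409 Recurrent cells (22.5 to 33.0) of cluster 105. In clusters 100 and 113 it was lower in Recurrent with overlapping intervals (63.9 against 116, and 47.2 against 69.7 CPM). In cluster 102 it was not lower, at 108 CPM in 31 Recurrent cells (49.4 to 205) and 96.4 in 552 Primary cells (86.1 to 107). Those 31 cells had a median of 1445 UMIs, against 5638 in the Primary ones, and 26 of them held eGFP. All levels by cluster include the cells without eGFP.
The 4 clusters made mostly of Primary cells (102, 106, 110 and 111) held Kit at 81.4 to 157 CPM. Of those made mostly of Recurrent cells, 5 (100, 101, 105, 109 and 112) held it at 30.6 to 64.4 CPM. Gata3 was at 95.9 to 182 CPM in the former and 55.4 to 74.4 in the latter. Neither gene's ranges overlapped between these 2 sets, which leave out the shared clusters 103 and 107. In those, some values lay inside the other set's range. Kit was at 93.0 CPM in Recurrent cells of cluster 103 and 53.8 in Primary cells of cluster 107, and Gata3 at 61.2 in Primary cells of cluster 103. Clusters are not replicates of a stage.

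**Figure D3:**
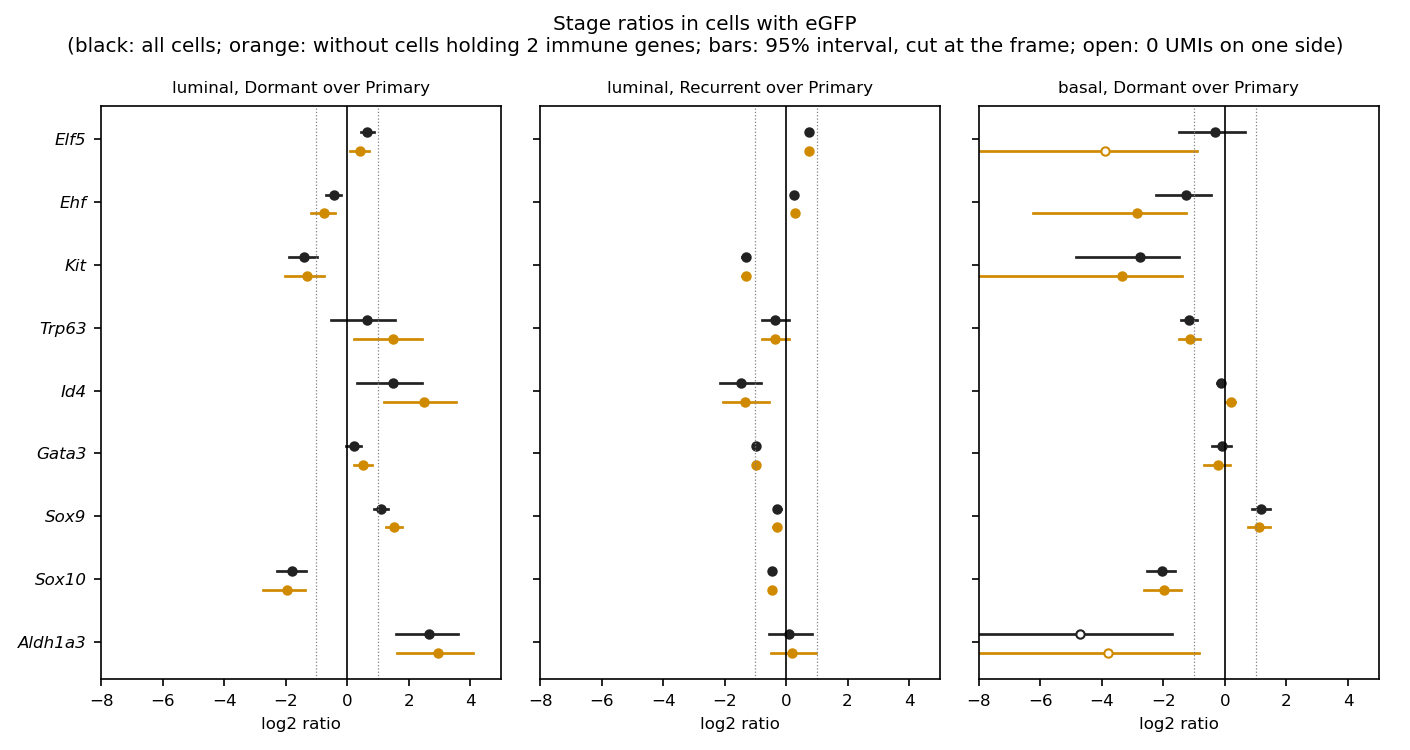
Log2 stage ratios in cells with eGFP for each gene, with 95% intervals and dotted lines at 2-fold. Black is all cells and orange leaves out cells with 2 immune genes. Kit lies left of 0 in all 3 panels, Sox9 right of 0 in both Dormant panels, and Sox10 left of 0 in all 3.

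In basal-like cells with eGFP the stages again came from different clusters. All 439 Primary cells were in cluster 104 and all 161 Dormant cells in cluster 108, which had more of the smooth-muscle actin gene Acta2 (2625 against 848 CPM over each cluster). Dormant over Primary, Sox9 was higher beyond 2-fold and 5 genes were lower (Sox10, Trp63, Ehf, Kit, Aldh1a3), beside 10.7% and 13.3% of all genes, whose median log2 ratio was -0.21. Sox9 was at 151 against 66.7 CPM, a log2 ratio of 1.18 (0.89 to 1.46). Sox10 was at 35.6 against 149 CPM, a log2 ratio of -2.05 (-2.53 to -1.63). Trp63 was at 114 against 254 CPM, a log2 ratio of -1.16 (-1.42 to -0.91). With each cell weighted equally, Sox9 and Trp63 were inside the limit, at 0.74 and -0.97, and with median-of-ratios scaling Trp63 was not called. Ehf was not called with layers by marker sums (-0.97). Elf5 became a sixth lower gene without cells holding immune genes, with 0 against 32 UMIs. Id4 differed little, at 532 against 588 CPM, a log2 ratio of -0.14 (-0.27 to -0.02), or 0.20 (0.05 to 0.34) without cells holding immune genes. The difference between the Trp63 and Id4 ratios was not tested. Kitl was at 166 against 41.5 CPM, a log2 ratio of 2.00 (1.68 to 2.32), while Kit was at 3.03 against 23.0 CPM, from 4 and 73 UMIs. Aldh1a3 was 4.29-fold lower against the 3-UMI floor, with an upper limit of -1.72 on the log2 scale. Of the relatives, Id2 stood at 657 against 139 CPM and Id3, of the same family, at 87.0 against 14.8.

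Recurrent held 11 basal-like cells, all with eGFP. In them Trp63 stood at 208 CPM (99.6 to 382, 10 UMIs), Id4 at 228 (114 to 409) and Sox9 at 228 (114 to 409), while Elf5, Ehf and Kit were at 0 UMIs, which at the 3-UMI floor allows up to 62.3 CPM. Of the Trp63 UMIs of that library, 89.2% lay in luminal-like cells, against 7.74% in Primary, at luminal levels of 4.88 and 6.28 CPM.

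The eGFP-negative epithelium of Long-term dormant fell into clusters that split the luminal regulators. In cluster 115, led by Csn1s2a and Glycam1, 38 Long-term dormant cells held Elf5 at 264 CPM (197 to 347), Ehf at 127, Kit at 45.7 and Gata3 at 76.2 (42.7 to 126). In cluster 117, led by Calca, Cited1, Wnt4 and Tnfsf11, 32 cells held Elf5 at 10.1 CPM (1.22 to 36.3), Kit and Sox10 at 0, and Gata3 at 196 (139 to 268). In cluster 114, led by Upk3a and Stc2, 33 cells held Elf5 at 10.6 CPM (1.28 to 38.2), Ehf at 15.8, Kit at 31.7 (11.6 to 69.0) and Gata3 at 301 (228 to 390.0). Elf5 was high in the first and low in the other 2, and Gata3 was the reverse, with no overlap of intervals in either case.
The hormone-pathway genes Foxa1, a pioneer factor, and Pgr, the progesterone receptor, were at 0 UMIs in cluster 115. They stood at 201 and 55.3 CPM in cluster 117 and 185 and 190.1 in the Long-term dormant cells of cluster 114. Kitl was low in cluster 115 (15.2 CPM) and high in clusters 117 (136) and 114 (137), the opposite of Elf5. Trp63 was at 0 or 1 UMI in each of the 3.
Cluster 114 also held 36 Dormant cells, 15 of them with eGFP, and there Elf5 was at 3.63 CPM (1 UMI) and Gata3 at 182 (135 to 239.6). Over all its libraries Foxa1 stood at 235 CPM in it, against less than 1 CPM in the luminal-like clusters made mostly of Primary or Recurrent cells.

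**Figure D4:**
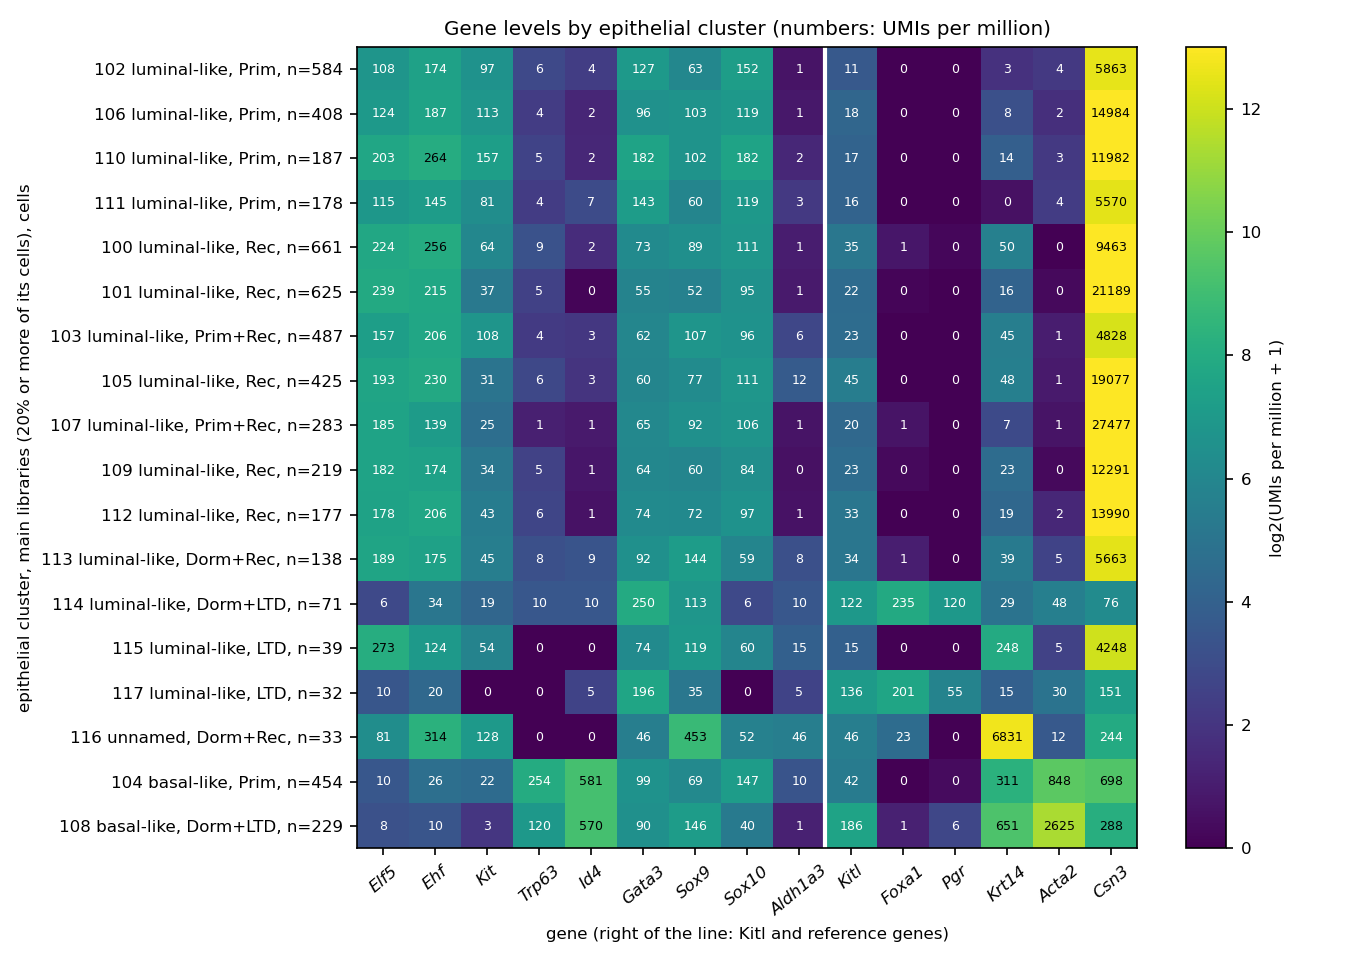
Levels by epithelial cluster, as CPM printed in each cell and coloured on a log2 scale. Rows give the cluster's name, the libraries that hold at least 20% of its cells and its cell number. Elf5 is low in clusters 114 and 117, where Gata3, Kitl and Foxa1 are high, Id4 and Trp63 are high in clusters 104 and 108, and the unnamed cluster 116 combines Krt14 at 6831 with Id4 and Trp63 at 0.

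Set against the 43 eGFP-negative Dormant cells, the 159 of Long-term dormant had Elf5 higher beyond 2-fold (log2 ratio 1.53, 0.43 to 3.14, from 58 and 6 UMIs) and no gene lower of 8 tested, beside 5.97% and 6.13% of all genes. The 2 sides were mixed from different clusters. Of the Dormant cells 21 were in cluster 114, 1 in cluster 115 and 17 in the basal-like cluster 108. The Long-term dormant cells were in clusters 108 (51), 115 (38), 114 (33) and 117 (32). Sox9, at 88.0 against 174 CPM, had a log2 ratio of -0.99 (-1.55 to -0.41), or -1.25 (-1.82 to -0.66) and called lower without cells holding immune genes. Within Dormant, eGFP-negative over eGFP-positive cells, Aldh1a3 was higher and Elf5 and Ehf lower, beside 4.76% and 5.91% of all genes. Elf5 was at 23.8 against 92.2 CPM and Ehf at 23.8 against 64.5, from 6 eGFP-negative UMIs of each gene. Of the 6 Elf5 UMIs, 3 lay in 1 cell. With each cell weighted equally neither gene was called (-0.93 and -0.44), while Trp63 was called lower (-1.05). These sides differed in make-up too, since 26 of 43 eGFP-negative and 92 of 253 eGFP-positive cells were luminal-like, 21 and 15 of them in cluster 114. The Aldh1a3 value rested on 6 UMIs, 5 of them in 1 cell, and was -0.04 on the log2 scale without cells holding immune genes. Without those cells Ehf was no longer called (-0.57), while Trp63 (-1.74) and Id4 (-1.32) were. Of 8 hormone-sensing regulators tested there, 6 were higher and 1 lower (median 4.25, beside -0.05 over all genes), with the growth factor Areg at 649 against 22.6 CPM. The 28 eGFP-negative Recurrent cells were unlike these. They held Elf5 at 215 CPM (143 to 310.2), beside 209 in the library's eGFP-positive luminal-like cells, and Gata3 at 176 (112 to 265), beside 61.6. Of these 23 Gata3 UMIs, 10 lay in 1 cell, and without it the level was 105 CPM (55.8 to 179).

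One epithelial cluster, number 116, could be named neither luminal nor basal. It held 33 cells, 10 from Dormant and 22 from Recurrent, 97.0% with eGFP, and was led by keratinisation genes such as Krt6a, Sprr1a and Krt14. Krt14, a keratin usually counted as basal, stood at 6831 CPM, yet Trp63, Id4 and the basal keratin gene Krt5 were at 0 UMIs. The 3-UMI floor is 17.4 CPM there. Sox9 stood at 453 CPM (358 to 565), Ehf at 314 (236 to 409), Kit at 128 (80.1 to 193) and Aldh1a3 at 46.5 (20.1 to 91.6). Its Sox9 level lay above that of each other epithelial cluster, of which the next, cluster 108, held 146 CPM. The Dormant and Recurrent cells gave Sox9 at 387 (250.3 to 571) and 540.4 CPM (404 to 709), and Elf5 at 0 and 145 (79.5 to 244). This cluster was described after its values were seen.

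Counts per cell were sparse. Thinned to 1000 UMIs per cell, 10.6% of Primary luminal-like cells with eGFP held an Elf5 UMI (9.11 to 12.1), 15.2% of Dormant (8.58 to 24.2) and 18.7% of Recurrent (17.2 to 20.2). Unthinned, the shares were 44.1, 58.7 and 76.1%, at median depths of 5661, 9289 and 9596.5 UMIs. In macrophage-like cells, which should lack Elf5, the thinned shares were 0.159%, 0 and 0.872%, so the epithelial shares were far above this background. For Kit the thinned luminal shares were 10.3% (8.88 to 11.9), 2.17% (0.264 to 7.63) and 4.19% (3.45 to 5.03), beside 0, 0 and 0.0792% in macrophage-like cells. Id4 was found in 0.303% of thinned Primary luminal-like cells, at the 0.159% of macrophage-like ones within the intervals, so it could not be told from background there. In Primary basal-like cells the thinned shares were 32.6% for Id4 and 25.1% for Trp63. Within a layer of 1 library, Pearson r between pairs of these genes across thinned cells lay between -0.14 and 0.20, which is no finding in counts this sparse.
Across all epithelial cells of each library, the genes most like Elf5 were Wfdc18, Csn3 and Muc15 (mean r of 0.44, 0.44 and 0.43 over 4 libraries). Those most like Id4 were Apoe, Tpm2 and Rflnb (0.49, 0.48 and 0.44). In Recurrent each of these r values was the lowest, at 0.05, 0.18 and 0.22 for Elf5 and 0.11, 0.06 and 0.15 for Id4. Wfdc18 and Muc15 were also nearest to Ehf (0.40 and 0.36) and Kit (0.29 and 0.24), and Apoe to Trp63 (0.36). Both layers entered these values, and Recurrent held 11 basal-like beside 2624 luminal-like cells. The part of this make-up in the lower Recurrent values was not tested. Cells of 1 library also share its depth and free RNA. For Gata3, Sox9, Sox10 and Aldh1a3 no gene exceeded 0.18.

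Several of the 9 genes were also found outside the epithelium. In Long-term dormant, fibroblast-like cells held 96.8% of the 619 Aldh1a3 UMIs, 62.1% of the Sox9 UMIs and 51.0% of the Id4 UMIs, and dendritic-like cells held 70.8% of the 154 Kit UMIs. Shares depend on cell number, and that library held 2897 fibroblast-like, 108 luminal-like and 54 basal-like cells. Its fibroblast-like level of Id4 was 15.3 CPM, beside 818 in eGFP-negative basal-like cells. For Sox9 it was 10.9 CPM, beside 77.6 in luminal-like and 119.9 in basal-like cells without eGFP. The fibroblast-like level of Aldh1a3 was 53.2 CPM there, 47.8 in Dormant and 129 in Recurrent, above the luminal-like level of the same library each time. Gata3, which also acts in T cells, stood at 73.2 CPM in T-like cells of Primary and 124 in those of Long-term dormant, and T- or NK-like cells held 48.1% of its Dormant UMIs. Kit stood at 18.5 to 36.7 CPM in dendritic-like cells of the 4 libraries. Elf5 stayed epithelial, with 85.5 to 98.5% of its UMIs in luminal-like cells of each library. Its highest level in another class was 32.4 CPM (17.7 to 54.4), in 74 dendritic-like cells of Recurrent. Bulk tissue, which was not measured here, would not tell fewer cells of a type from less RNA per cell.

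**Figure D5:**
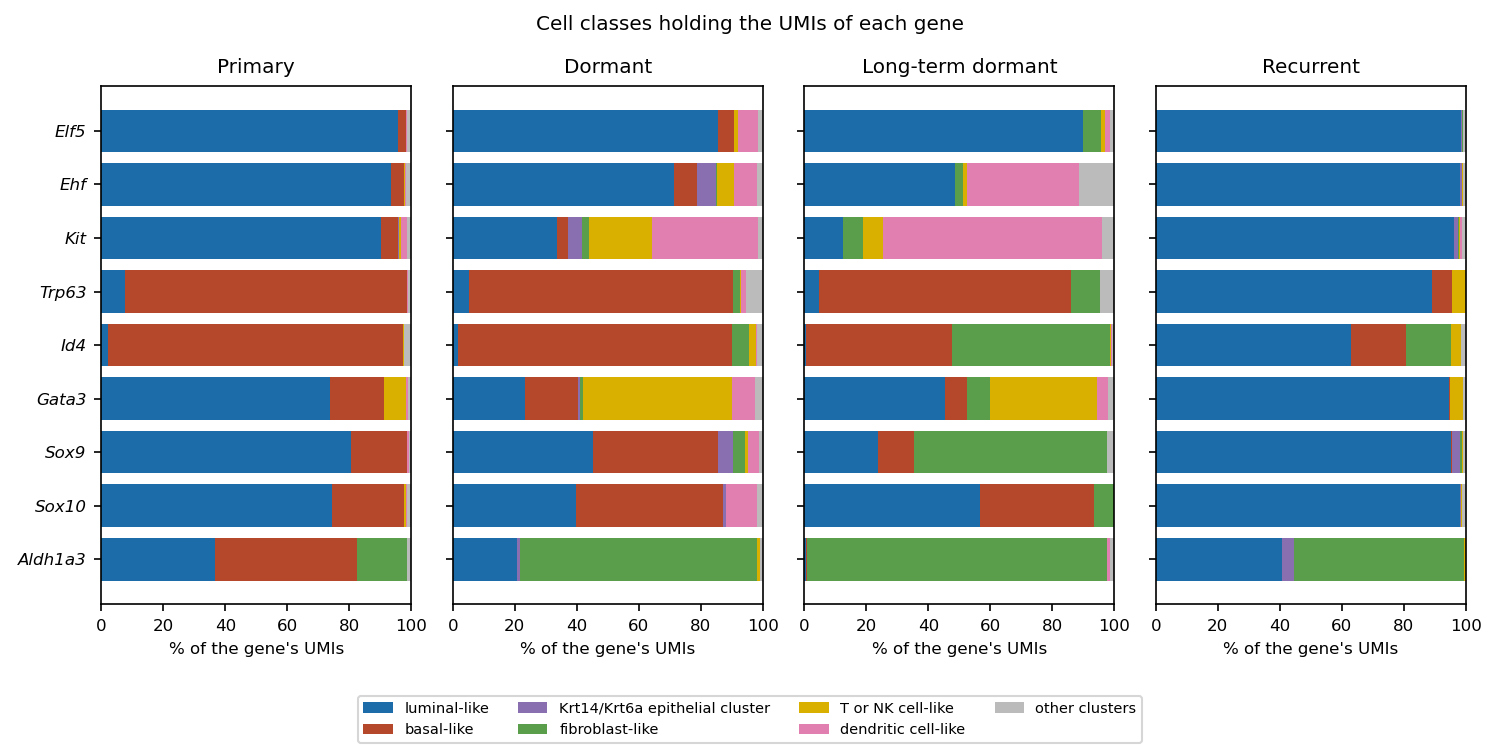
Share of each gene's UMIs (percent, by library) that lay in each class of cells, over all cells used. Elf5 is mostly luminal-like in each panel. Aldh1a3 is mostly fibroblast-like in Dormant, Long-term dormant and Recurrent (54.9% in the last), and Kit is mostly dendritic-like in Long-term dormant (70.8%).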

How the data were processed

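Of 6 single-cell libraries, the 4 stage libraries were used, 1 per group, grouped by their titles. The authors deposited UMI counts per gene and cell. The submitters' processing notes name Cell Ranger 3.1.0, FastQC and the build mm10. Any filter applied to cells ahead of deposition is not given in the sources used here. Cells under 500 UMIs, under 200 genes or over 20% mitochondrial UMIs were removed. Scrublet doublets were removed with scanpy 1.11.5 and marked 53 Primary, 0 Dormant, 137 Long-term dormant and 57 Recurrent cells. Cells were clustered without the 9 genes (2000 variable genes, 30 components, 15 neighbours, Leiden resolution 1.0, leidenalg 0.10.2), and epithelial clusters were clustered again. Layers and other classes were named from marker lists. This naming rule was revised after clusters were seen. Counts were summed per subset and library, with exact Poisson, Clopper-Pearson and conditional Poisson intervals at 95%, a prior of 0.5 counts in log2 ratios and a floor of 3 UMIs for 0. Levels needed 10 cells and ratios 30. Intervals cover counting error only, so they are too narrow for differences between animals. The code for ratios was tested on simulated data.

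The 9 members, named by the rule, and the other gene lists were chosen with earlier results of these data known. From each other list up to 3 genes with the largest ratio beyond 2-fold could be named. Kitl was always given. The genes nearest to a member were the 3 with the highest mean Pearson r over the libraries. Clusters were singled out after their values were seen. Alternatives were other cell filters, resolutions, scalings (TMM from edgeR 4.0.16), lineage and eGFP rules and cell or cluster weights. Leaving out cells with immune genes or shared barcodes, and counting cluster 116 as luminal, were added after seeing the data, as were levels without the top cell of a gene. Gene positions came from GENCODE on GRCm38, the same build as mm10, and promoters from RefSeq, which held entries for 4 of the 9 genes.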

Additional observations from a re-analysis of the deposited data

Results flagged for a closer look

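The ratios of Id4 and Aldh1a3 between Primary and Dormant had opposite signs in the 2 layers. For Id4 the log2 ratio, Dormant over Primary, was 1.48 in luminal-like and -0.14 in basal-like cells with eGFP. For Aldh1a3 it was 2.65 in luminal-like and -4.71 in basal-like cells, where Dormant was at 0 UMIs and the value is no bound. For Id4 this did not hold in all settings. Without cells holding immune genes both ratios were above 0 (2.50 and 0.20), and with layers by marker sums the luminal one was -0.72. With 1 library per stage the difference between the layers was not tested. The luminal Dormant values came from 11 UMIs of Id4 and 15 of Aldh1a3, and the Id4 share of Primary luminal-like cells could not be told from background.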

How the results depend on the processing

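Over 15 alternative settings, 1242 of 1290 calls of single genes as beyond 2-fold or not were kept. Of the 1290 ratios, 25 changed sign, 23 of which were not called in the main setting. The other 2 had been called. Id4 in luminal-like cells, Dormant over Primary, was -0.72 with layers assigned by marker sums per cell. Aldh1a3 in Dormant, without over with eGFP, was -0.04 without cells holding 2 immune genes, and its call was also lost without its top cell (0.52). The median of the hormone-sensing list in Dormant, luminal over basal, changed from 2.60 to -0.26 at a minimum of 100 UMIs, where fewer genes were tested. The numbers of genes beyond 2-fold changed as follows. Long-term dormant luminal over basal had 1 higher with marker sums per cell. Luminal Recurrent over Dormant had 2 higher without cells holding immune genes. Basal Dormant over Primary had 0 higher with equal cell weights. Among eGFP-negative cells, Long-term dormant over Dormant had 2 higher under the stricter filter, 0 with equal weights, and 1 lower (Sox9) in 9 settings, at log2 ratios from -1.04 to -1.25. Dormant without over with eGFP had 0 higher in 4 settings (eGFP from 2 UMIs, without top cells, equal weights, no immune-gene cells). It had 4 lower under the stricter filter or without top cells, against 1 (Trp63) with equal weights. The cause was not tested. No replicate could be left out, since each group is 1 library, and no paired analysis was possible because the groups hold 1 library each. Levels with equal weight per cluster moved in 16 of 63 cases. Depth limits the small subsets most: the 3-UMI floor was 62.3 CPM in the 11 Recurrent basal-like cells, and 49.2 in the 17 eGFP-negative basal-like ones of Dormant.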
